A study of Mus musculus with 12 samples.

Results

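The 9 genes described here are Hmox1, Nqo1, Gclc, Gclm, Slc7a11, Srxn1, Txnrd1, Mt1 and Mt2, a set of antioxidant genes regulated by the transcription factor NRF2 together with the inducible metallothioneins. They were taken by gene symbol: every probe set that the platform annotation gives to 1 of these symbols alone was used, which gave 16 probe sets, and the genes were 9 of the 12394 genes tested. The 12 arrays measured RNA of the hippocampal CA1 subfield of mice, the region whose pyramidal neurons are most sensitive to a short stop of forebrain blood flow. There were 4 groups of 3 arrays: SUMO-KD mice after ischemia, which are transgenic animals in which SUMO, a small protein tag attached to other proteins, is knocked down; SUMO-KD mice after sham surgery; wild-type mice after ischemia; and wild-type mice after sham surgery. Ischemia lasted 10 min, tissue was taken at 3 h of reperfusion, and each array held RNA pooled from the brains of 2 mice. The labels call the 3 samples of a group biological replicates and give neither age nor sex, nor the promoter that drives the knockdown. RNA from a dissected tissue holds all its cells, so fewer cells of a type and less RNA per cell cannot be told apart.

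In resting cells NRF2, the product of Nfe2l2, is held by KEAP1 and degraded. Oxidants and electrophiles modify KEAP1, NRF2 then enters the nucleus, pairs with a small MAF protein and binds antioxidant response elements, which BACH1 can occupy as a repressor, most clearly at Hmox1. Metallothioneins are small cysteine-rich proteins that bind zinc and copper, and their genes are switched on by metals through MTF1 at metal response elements, and also by glucocorticoids. In the brain Mt1 and Mt2 are mainly glial, while Mt3 is the brain-enriched member of the family.

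The promoters of 4 of the genes that rose are shown because they carry letters that match the binding motifs of these factors. RefSeq (GRCm38.p6) gave 300 bases, 250 before and 50 after the start of transcription, for 7 of the 9 genes. Capitals mark matches on either strand to TGACNNNGC (antioxidant response element), to TGCACNC or TGCGCNC (metal response element) or to TGANTCA (AP-1 site). Mt1 lies at chr8:94178839-94179138 and Mt2 at chr8:94172368-94172667, both on the plus strand. Srxn1 lies at chr2:152105274-152105573 and the promoter of Txnrd1 that holds a match at chr10:82858956-82859255, also on the plus strand.
Mt1: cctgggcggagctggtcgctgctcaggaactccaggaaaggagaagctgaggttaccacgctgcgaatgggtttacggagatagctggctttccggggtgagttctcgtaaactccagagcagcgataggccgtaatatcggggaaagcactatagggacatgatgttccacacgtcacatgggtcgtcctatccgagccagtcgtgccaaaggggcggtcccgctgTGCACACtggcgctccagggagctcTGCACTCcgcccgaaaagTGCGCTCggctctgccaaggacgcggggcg
Mt2: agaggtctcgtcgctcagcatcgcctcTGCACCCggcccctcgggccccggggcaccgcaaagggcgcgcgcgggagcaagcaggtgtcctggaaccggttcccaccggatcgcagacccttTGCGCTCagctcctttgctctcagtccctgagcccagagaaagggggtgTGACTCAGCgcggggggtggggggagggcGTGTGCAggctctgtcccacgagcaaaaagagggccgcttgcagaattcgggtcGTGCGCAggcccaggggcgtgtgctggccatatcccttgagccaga
Srxn1: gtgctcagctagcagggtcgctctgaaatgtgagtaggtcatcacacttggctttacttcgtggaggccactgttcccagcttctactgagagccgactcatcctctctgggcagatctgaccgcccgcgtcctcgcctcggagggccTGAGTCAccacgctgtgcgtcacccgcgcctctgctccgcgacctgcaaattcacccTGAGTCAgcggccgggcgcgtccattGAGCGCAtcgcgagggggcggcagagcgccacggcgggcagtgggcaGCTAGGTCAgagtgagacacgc
Txnrd1: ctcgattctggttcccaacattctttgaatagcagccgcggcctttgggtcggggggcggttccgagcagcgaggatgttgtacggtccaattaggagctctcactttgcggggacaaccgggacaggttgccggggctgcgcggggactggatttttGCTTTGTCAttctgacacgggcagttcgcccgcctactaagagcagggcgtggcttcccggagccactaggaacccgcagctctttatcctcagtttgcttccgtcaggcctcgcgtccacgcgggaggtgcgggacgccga

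The Mt1 promoter held 3 metal response element matches, and the Mt2 promoter held 4. Mt2 also held 1 antioxidant response element match, TGACTCAGC, whose letters overlap an AP-1 match. Srxn1 held 1 antioxidant response element match, 1 metal response element match and 2 AP-1 matches, and Txnrd1 held 1 antioxidant response element match in 1 of its 3 promoters. Gclm held 1 antioxidant and 3 metal response element matches, and the promoters of Nqo1 and Slc7a11 held no match in this window. Of all 32851 RefSeq promoters of this length, 12.4% held the antioxidant response element letters, 25.7% the metal response element letters and 7.81% the AP-1 letters, so these matches are a description and not evidence of binding.

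At 3 h of reperfusion Hmox1, Mt1 and Mt2 were higher than in sham in both genotypes. Srxn1 and Txnrd1 were higher in wild-type mice, with smaller differences in SUMO-KD mice that did not pass the test. Gclm and Slc7a11 passed it in wild-type mice by a small margin, and Nqo1 and Gclc passed it in neither genotype. Values are the deposited intensities, in arbitrary units, and changes are differences of log2(intensity + 32) with their standard error (SE), from limma with 4 group means. A gene was called when its p-value, adjusted by the Benjamini-Hochberg method over all 12394 genes, was under 0.05. In SUMO-KD mice 3 of the 9 genes were called higher and 0 lower, against 6.09% of all genes called higher and 4.62% called lower. In wild-type mice 7 of the 9 were called higher and 0 lower, where 9.6% of all genes were called higher and 8.88% lower. The median log2 change of the 9 genes was 0.46 in SUMO-KD and 0.67 in wild-type mice, beside -0.02 and -0.04 over all genes. All 3 ischemia arrays lay above all 3 sham arrays for 5 of the 9 genes in SUMO-KD mice (13.9% of all genes) and for 6 in wild-type mice (15.6% of all genes). With the response averaged over both genotypes, 6 of the 9 were called higher (12.8% of all genes). The genes thus differed in how far they moved, from Hmox1 with the highest change to Nqo1 and Gclc within the spread of the arrays.

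**Figure D1:**
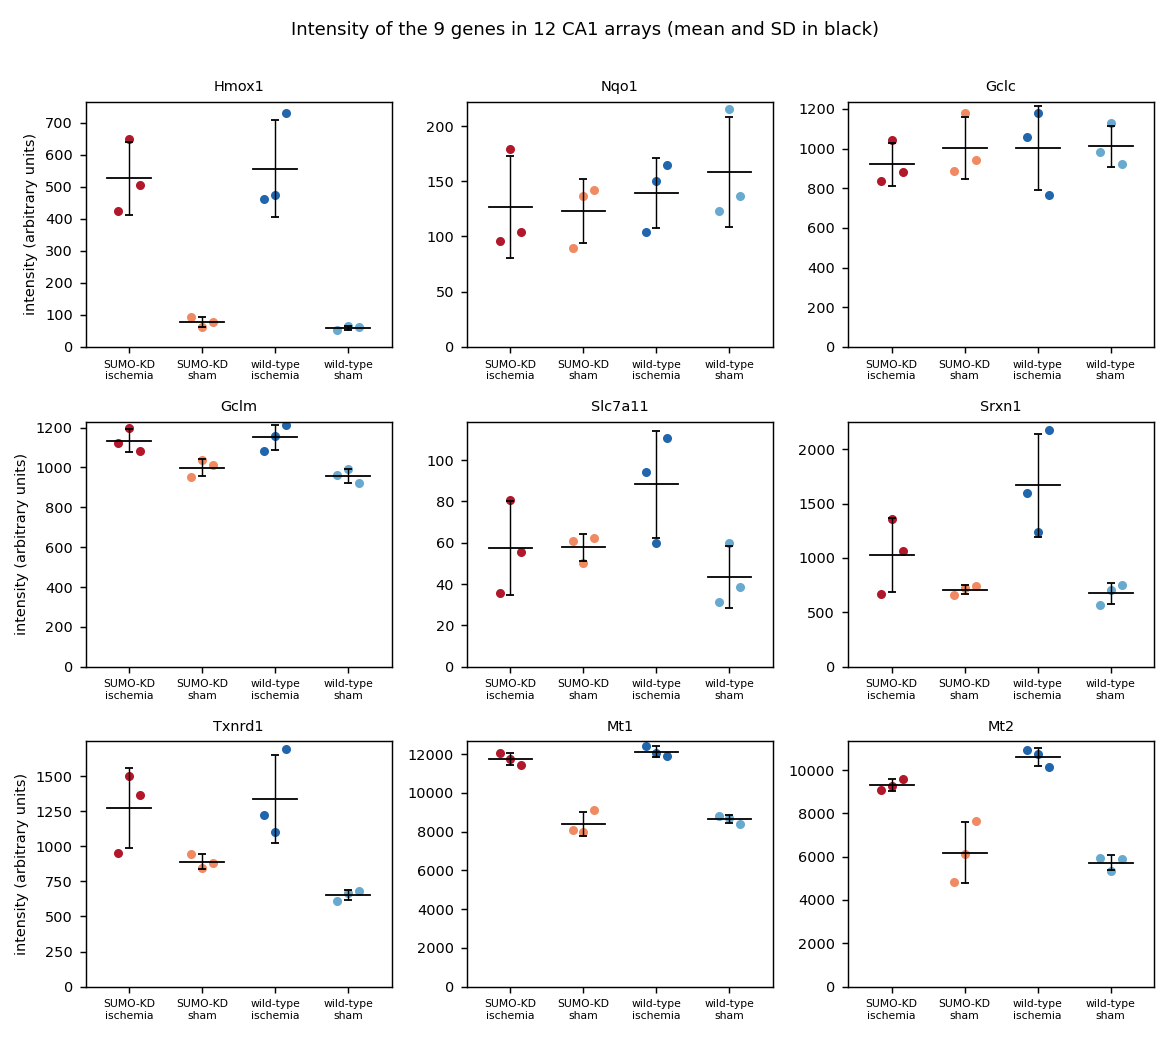
Intensity in arbitrary units (linear axis from 0) of the probe set used for each of the 9 genes, 1 point per array, by group. The black line is the mean and the black bar the SD of 3 arrays. Hmox1 shows no overlap between ischemia and sham in either genotype, with 424 to 651 against 62.3 to 95 in SUMO-KD mice.

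**Figure D2:**
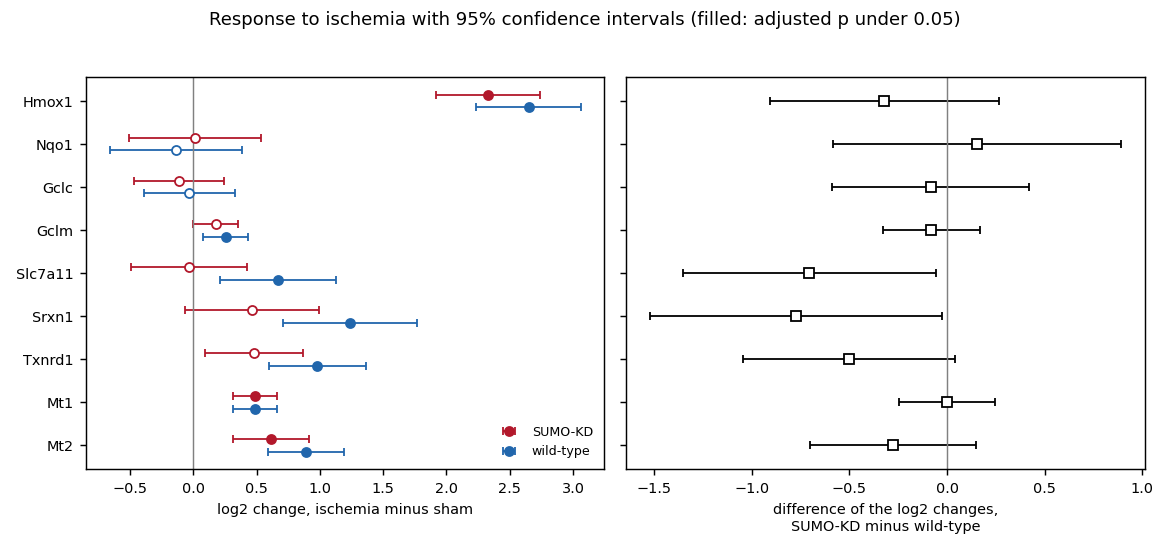
Left, log2 change after ischemia relative to sham for each gene in SUMO-KD (red) and wild-type mice (blue), with 95% confidence intervals and filled points where the adjusted p was under 0.05. Right, the difference of the 2 changes, SUMO-KD minus wild-type. The intervals for Slc7a11 and Srxn1 lie below 0 on the right, and no difference passed the adjusted test.

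Hmox1 encodes heme oxygenase 1, the inducible enzyme that splits heme into biliverdin, carbon monoxide and iron. Its intensity was 424, 651 and 506 in the SUMO-KD ischemia arrays and 95, 62.3 and 78.4 in the SUMO-KD sham arrays. It was 463, 476 and 732 in the wild-type ischemia arrays and 52.6, 65.1 and 62.7 in the wild-type sham arrays. Every ischemia array lay above every sham array, and the groups of the 2 genotypes overlapped after ischemia. The ratio of the group means was 6.70 in SUMO-KD mice (log2 change 2.33, SE 0.19, limma adjusted p = 1.975e-05) and 9.26 in wild-type mice (log2 change 2.65, SE 0.19, limma adjusted p = 5.338e-06). This placed Hmox1 at rank 23 of 12394 genes in SUMO-KD mice and at rank 20 in wild-type mice, counted from the highest change. The difference of the responses, SUMO-KD minus wild-type, was -0.32 (95% confidence interval -0.91 to 0.26, limma adjusted p = 0.902).

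By the root mean square difference of log2(intensity + 32) over the 12 arrays, each gene centred on its own mean, the genes whose pattern was most like Hmox1 were Lmna (0.130), which encodes lamins of the nuclear envelope, Ccdc86 (0.283) and Tnc (0.303), which encodes the matrix protein tenascin C. Their log2 changes averaged over both genotypes were 2.37 for Lmna, 2.09 for Ccdc86 and 2.04 for Tnc, beside 2.49 for Hmox1.

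Of the 3 genes of glutathione synthesis and cystine supply, 0 were called in SUMO-KD mice, where 6.09% of all genes were called higher. In wild-type mice 2, Gclm and Slc7a11, were called higher, where 9.6% of all genes were. Both calls lay near the threshold, and no difference between the genotypes was called for these genes. Gclc and Gclm encode the catalytic and the modifier subunit of glutamate-cysteine ligase, the rate-limiting enzyme of glutathione synthesis, and Slc7a11 encodes the light chain of the cystine-glutamate antiporter that supplies its cysteine. Gclc read 836, 1043 and 881 in SUMO-KD ischemia and 886, 1179 and 942 in SUMO-KD sham arrays. In wild-type mice it read 1058, 1179 and 766 after ischemia and 983, 1127 and 923 after sham. The groups overlapped in both genotypes, with log2 changes of -0.12 (limma adjusted p = 0.741) in SUMO-KD and -0.03 (limma adjusted p = 0.927) in wild-type mice. The other Gclc probe set, 1424296_at, ranged from 898 to 978 in SUMO-KD ischemia and 862 to 993 in SUMO-KD sham arrays, and 731 to 993 in wild-type ischemia and 721 to 897 in wild-type sham arrays, and was called in neither genotype.

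Gclm read 1122, 1196 and 1083 in SUMO-KD ischemia and 950, 1035 and 1014 in SUMO-KD sham arrays. It read 1084, 1158 and 1212 in wild-type ischemia and 961, 991 and 923 in wild-type sham arrays. Ischemia lay above sham without overlap in both genotypes, but by small amounts. The log2 change was 0.18 (SE 0.08, limma adjusted p = 0.208) in SUMO-KD and 0.26 (SE 0.08, limma adjusted p = 0.0470) in wild-type mice, and 0.22 (SE 0.06, limma adjusted p = 0.0154) averaged over both. The wild-type call was lost when any 1 of the 12 arrays was left out, with adjusted p between 0.0506 and 0.137. The averaged call was kept when any array was left out and was lost only with arrays centred on their median (limma adjusted p = 0.0530).

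Slc7a11 read 35.7, 80.8 and 55.7 in SUMO-KD ischemia and 60.9, 50.2 and 62.2 in SUMO-KD sham arrays. It read 94.1, 59.8 and 111 in wild-type ischemia and 31.1, 60.1 and 38.7 in wild-type sham arrays. The groups overlapped in both genotypes, and these are dim values. The log2 change was -0.03 (SE 0.21, limma adjusted p = 0.95) in SUMO-KD and 0.67 (SE 0.21, limma adjusted p = 0.0452) in wild-type mice. The wild-type call was lost without any 1 of 8 of the 12 arrays (adjusted p 0.0576 to 0.153): ischemia replicates 1 and 3 and sham replicates 1 and 3 of the wild-type, and ischemia replicate 3 and all 3 sham replicates of the SUMO-KD mice. The difference of the responses was -0.70 (95% confidence interval -1.35 to -0.06, limma adjusted p = 0.797). As background, Slc7a11 is a known target of ATF4 as well as of NRF2.

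Nqo1, which encodes a quinone reductase and is a standard NRF2 target, was called in neither genotype. It read 95.9, 180 and 104 in SUMO-KD ischemia and 89.3, 137 and 142 in SUMO-KD sham arrays. It read 104, 150 and 164 in wild-type ischemia and 123, 215 and 137 in wild-type sham arrays. The groups overlapped throughout. The log2 change was 0.01 (95% confidence interval -0.51 to 0.53) in SUMO-KD and -0.14 (-0.66 to 0.38) in wild-type mice, so a change within these bounds was not excluded.

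In the thioredoxin branch both genes were called higher in wild-type mice (9.6% of all genes) and neither in SUMO-KD mice (6.09% of all genes). The difference between the genotypes, given further on, was not called for either. Srxn1 encodes sulfiredoxin, which restores overoxidized peroxiredoxins, and Txnrd1 encodes the cytosolic thioredoxin reductase. Srxn1 read 669, 1353 and 1061 in SUMO-KD ischemia and 663, 722 and 739 in SUMO-KD sham arrays. It read 1601, 1234 and 2172 in wild-type ischemia and 566, 708 and 752 in wild-type sham arrays. SUMO-KD ischemia replicate 1 lay within its sham range, while all wild-type ischemia arrays lay above all sham arrays. The ratio of means was 1.45 in SUMO-KD (log2 change 0.46, SE 0.24, limma adjusted p = 0.272) and 2.47 in wild-type mice (log2 change 1.24, SE 0.24, limma adjusted p = 0.00456).

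Txnrd1 read 953, 1505 and 1364 in SUMO-KD ischemia and 947, 844 and 881 in SUMO-KD sham arrays. It read 1223, 1101 and 1695 in wild-type ischemia and 613, 665 and 680 in wild-type sham arrays. Ischemia lay above sham without overlap in both genotypes, in SUMO-KD replicate 1 by only a few units. The ratio of means was 1.43 in SUMO-KD (log2 change 0.48, SE 0.18, limma adjusted p = 0.115) and 2.05 in wild-type mice (log2 change 0.98, SE 0.18, limma adjusted p = 0.00284). The SUMO-KD sham arrays lay above the wild-type sham arrays without overlap, a log2 difference of 0.43 (SE 0.18, limma adjusted p = 0.298), and after ischemia the difference was -0.07.

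The 2 genotypes were then compared directly. A call that only the wild-type mice passed does not by itself show that the genotypes differ. The difference of the responses was -0.77 for Srxn1 (95% confidence interval -1.52 to -0.03, limma adjusted p = 0.797) and -0.50 for Txnrd1 (-1.05 to 0.04, limma adjusted p = 0.825). Over the 9 genes, limma called 0 differences of response (2 at an unadjusted p under 0.05, Slc7a11 and Srxn1), where 0.0161% of all genes were called and 766 of 12394 had an unadjusted p under 0.05. For SUMO-KD against wild-type in sham it called 0 of the 9 (1 at an unadjusted p under 0.05, Txnrd1), against 2.1% of all genes. After ischemia it called 0 of the 9 (1 at an unadjusted p under 0.05, Srxn1), against 1.56% of all genes. The median difference of response over the 9 genes was -0.28, beside 0.01 over all genes.

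SUMO-KD ischemia replicates 1 and 2 decided much of the SUMO-KD values of Srxn1 and Txnrd1. Without replicate 1 the Txnrd1 change was 0.67 and was called (limma adjusted p = 0.0233), and the Srxn1 change was 0.73 (limma adjusted p = 0.0510). Without replicate 2 they were 0.35 and 0.24, with limma adjusted p of 0.357 and 0.673. Over 282 genes raised at least 2-fold in wild-type mice, the mean log2 change from the SUMO-KD sham mean was 1.13 in replicate 1, 1.28 in replicate 2 and 1.24 in replicate 3. Replicate 2 also stood apart in the 5′ probe set for 18S rRNA, which read 4127 there and 1275 to 1660 in the other ischemia arrays, against 4194 to 6528 in sham arrays, and in the neutrophil gene S100a8, which read 705 there and 134.8 to 180.7 in the other ischemia arrays. The choroid plexus markers Folr1 and Kl also differed between arrays. In SUMO-KD ischemia replicates 1 to 3 Folr1 read 232, 1034.5 and 562, and Kl 366, 1309 and 661. In wild-type ischemia replicates 1 to 3 Folr1 read 73.4, 641 and 1247, and Kl 187, 1043 and 1154. The other measured markers of that list, Ttr and Foxj1, had another order in SUMO-KD ischemia, with 20180, 21789 and 24136 and with 204, 182 and 175. The part of these differences between arrays in the results was not tested.

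The other probe sets of Srxn1 gave the same order of the genotypes. Probe set 1451680_at read 232, 397 and 229 in SUMO-KD ischemia and 190, 193 and 223 in SUMO-KD sham arrays, and 473, 374 and 730 in wild-type ischemia and 201, 218 and 212 in wild-type sham arrays. Its log2 change was 0.40 (limma adjusted p = 0.331 over 20393 probe sets) in SUMO-KD and 1.15 (limma adjusted p = 0.00532) in wild-type mice. Probe set 1425351_at read 98.7, 173 and 176 in SUMO-KD ischemia and 96.3, 126 and 124 in SUMO-KD sham arrays, and 289, 270 and 331 in wild-type ischemia and 88.9, 139 and 122 in wild-type sham arrays. Its log2 change was 0.27 (limma adjusted p = 0.452) in SUMO-KD and 1.16 (limma adjusted p = 0.00168) in wild-type mice.

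After ischemia the SUMO-KD arrays of 1425351_at lay below the wild-type arrays without overlap, a log2 difference of -0.89 at the edge of the threshold (limma adjusted p = 0.04997), where 1.07% of all probe sets were called in either direction. That call was lost when any 1 of the 12 arrays was left out, with adjusted p between 0.0526 and 0.135. A further probe set of the gene, 1419942_at, and both other Txnrd1 probe sets, 1424486_a_at and 1424487_x_at, were called in neither genotype. Over all 16 probe sets, 4 were called higher in SUMO-KD mice (5.42% of all probe sets) and 9 in wild-type mice (9.15% of all probe sets).

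**Figure D3:**
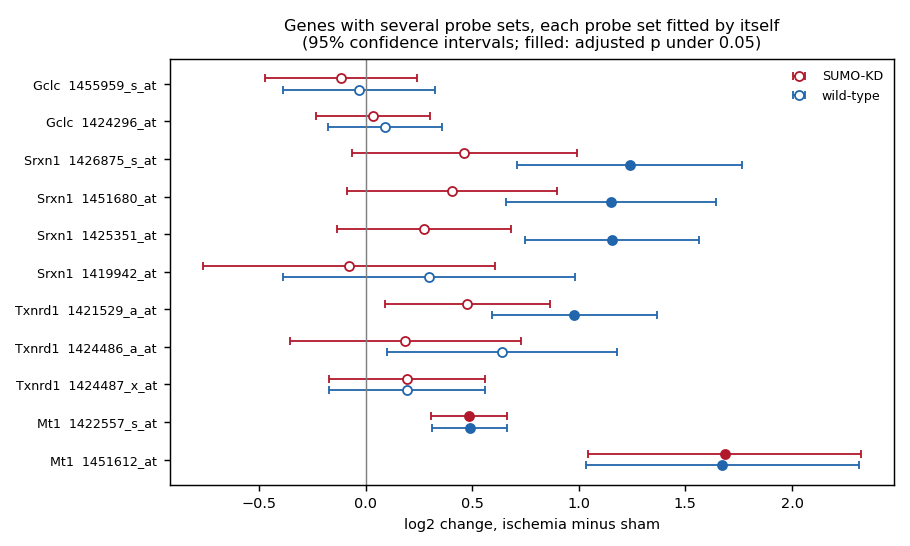
Log2 change after ischemia relative to sham for every probe set of the 4 genes with more than 1, in SUMO-KD (red) and wild-type mice (blue), with 95% confidence intervals and filled points where the adjusted p was under 0.05. Of the 4 Srxn1 probe sets, 3 were called in wild-type mice and 0 in SUMO-KD mice, and both Mt1 probe sets were called in both genotypes.

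The metallothioneins rose in both genotypes. Mt1 read 12066, 11746 and 11414 in SUMO-KD ischemia and 8088, 7953 and 9125 in SUMO-KD sham arrays. It read 12416, 12046 and 11873 in wild-type ischemia and 8786, 8716 and 8387 in wild-type sham arrays. Ischemia and sham did not overlap. The ratio of means was 1.40 in SUMO-KD (log2 change 0.49, SE 0.08, limma adjusted p = 0.00254) and 1.40 in wild-type mice (log2 change 0.49, SE 0.08, limma adjusted p = 0.00157). The difference of the responses had a 95% confidence interval of -0.25 to 0.24.

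The other Mt1 probe set, 1451612_at, gave a larger change from lower values. It read 360, 212 and 308 in SUMO-KD ischemia and 62.8, 37.2 and 117 in SUMO-KD sham arrays, and 240, 358 and 234 in wild-type ischemia and 50.3, 100 and 47.8 in wild-type sham arrays. Its log2 change was 1.68 (limma adjusted p = 0.00443) in SUMO-KD and 1.67 (limma adjusted p = 0.00278) in wild-type mice, so the 2 probe sets had the same direction and the size of the Mt1 change depended on the probe set. The name of the brighter one, 1422557_s_at, marks probes shared between transcripts. The probe sets used for Srxn1, 1426875_s_at, and Gclc, 1455959_s_at, carry the same mark.

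Mt2 read 9075, 9261 and 9595 in SUMO-KD ischemia and 4808, 6138 and 7633 in SUMO-KD sham arrays. It read 10915, 10759 and 10150 in wild-type ischemia and 5959, 5319 and 5898 in wild-type sham arrays. Ischemia lay above sham without overlap in both genotypes, and the SUMO-KD sham arrays were the most spread. The ratio of means was 1.5 in SUMO-KD (log2 change 0.61, SE 0.14, limma adjusted p = 0.0156) and 1.85 in wild-type mice (log2 change 0.89, SE 0.14, limma adjusted p = 0.00116). The SUMO-KD call was lost without SUMO-KD ischemia replicate 2 (adjusted p = 0.0502) or replicate 3 (adjusted p = 0.0570). After ischemia every SUMO-KD array lay below every wild-type array, by a log2 difference of -0.19 (limma adjusted p = 0.560), and the difference of the responses was -0.28 (95% confidence interval -0.70 to 0.15, limma adjusted p = 0.899). Mt1 and Mt2 are also glucocorticoid-responsive genes.

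Of 8 regulators of the NRF2 pathway, 3 rose and 0 fell in each genotype: Maff and Mafk, which encode small MAF partners, and Bach1. For this and the following lists, the shares of all genes were 6.09% higher and 4.62% lower in SUMO-KD mice and 9.6% higher and 8.88% lower in wild-type mice. The median log2 change of the 8 was 0.26 in SUMO-KD and 0.17 in wild-type mice. Maff averaged 625 ± 165 in SUMO-KD ischemia and 51.6 ± 20.7 in SUMO-KD sham arrays, and 658 ± 99.9 in wild-type ischemia and 57.4 ± 8.4 in wild-type sham arrays (SD, n = 3 each), with log2 changes of 2.98 in SUMO-KD (limma adjusted p = 6.39e-06) and 2.94 in wild-type mice (limma adjusted p = 4.14e-06). Mafk rose by 1.04 in SUMO-KD (limma adjusted p = 0.00149) and by 1.02 in wild-type mice on the log2 scale (limma adjusted p = 0.00108).

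Bach1 read 880, 732 and 849 in SUMO-KD ischemia and 383, 463 and 447 in SUMO-KD sham arrays, and 1074, 1091 and 1155 in wild-type ischemia and 334, 321 and 375 in wild-type sham arrays. Its log2 change was 0.88 (SE 0.10, limma adjusted p = 0.00026) in SUMO-KD and 1.60 (SE 0.10, limma adjusted p = 2.31e-06) in wild-type mice. After ischemia the SUMO-KD arrays lay below the wild-type arrays without overlap, a log2 difference of -0.42 (limma adjusted p = 0.0737), and the difference of the responses was -0.72 (95% confidence interval -1.04 to -0.41, limma adjusted p = 0.248). The dimmer Bach1 probe set, 1449311_at, changed by 0.63 (limma adjusted p = 0.0528 over 20393 probe sets) in SUMO-KD and by 1.09 (limma adjusted p = 0.00207) in wild-type mice.

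The mRNA of NRF2 itself was not called. Nfe2l2 read 351, 571 and 458 in SUMO-KD ischemia and 566, 700 and 592 in SUMO-KD sham arrays, and 423, 386 and 546 in wild-type ischemia and 573, 493 and 505 in wild-type sham arrays, with log2 changes of -0.42 (limma adjusted p = 0.143) in SUMO-KD and -0.21 (limma adjusted p = 0.439) in wild-type mice. Keap1 had log2 changes of -0.12 (limma adjusted p = 0.526) in SUMO-KD and -0.23 (limma adjusted p = 0.117) in wild-type mice, where it was called with the mean of its probe sets (adjusted p = 0.0188) and with arrays centred on their median (adjusted p = 0.0477). Its dimmer probe set, 1450747_at, was called lower in wild-type mice (log2 change -0.39, limma adjusted p = 0.00808 over 20393 probe sets). Arrays measure mRNA, so the protein level and the activity of these factors were not measured.

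Of 12 measured genes of metal handling besides Mt1 and Mt2, 2 rose in SUMO-KD and 3 in wild-type mice, and 0 fell, with median log2 changes of -0.02 and 0.24, against 6.09% and 9.6% of all genes called higher. Leaving out an array in turn gave 2 to 4 in SUMO-KD, the 4 without SUMO-KD ischemia replicate 1, and 2 to 3 in wild-type mice. Slc30a1, a zinc exporter and target of MTF1, averaged 396 ± 58.7 in SUMO-KD ischemia and 114 ± 8.5 in SUMO-KD sham arrays, and 298 ± 55.8 in wild-type ischemia and 92.3 ± 21.7 in wild-type sham arrays (SD, n = 3 each), with log2 changes of 1.54 (limma adjusted p = 0.000103) in SUMO-KD and 1.41 (limma adjusted p = 0.000135) in wild-type mice. The 2 probe sets of Mtf1 disagreed. Probe set 1429170_a_at, the brighter one, changed by 2.40 in SUMO-KD (limma adjusted p = 8.76e-07) and by 2.27 in wild-type mice (limma adjusted p = 9.79e-07), and 1418333_at by 0.37 in SUMO-KD (limma adjusted p = 0.153 over 20393 probe sets) and 0.40 in wild-type mice (limma adjusted p = 0.0819). Mt3 had log2 changes of -0.20 (limma adjusted p = 0.417) in SUMO-KD and -0.29 (limma adjusted p = 0.171) in wild-type mice.

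Slc39a14, a zinc importer, changed by 0.53 in SUMO-KD (limma adjusted p = 0.0615) and 0.57 in wild-type mice (limma adjusted p = 0.0310). Its wild-type call was lost without wild-type ischemia replicate 1 or 3 or any wild-type sham replicate (adjusted p 0.0529 to 0.111) and with no offset (adjusted p = 0.0519). It was called in SUMO-KD mice with the mean of its probe sets (adjusted p = 0.00155), a filter on dim genes (adjusted p = 0.0431), limma's trend and robust options (adjusted p = 0.0381), and without SUMO-KD ischemia replicate 1 (adjusted p = 0.00625) or wild-type ischemia replicate 3 (adjusted p = 0.0462).

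**Figure D4:**
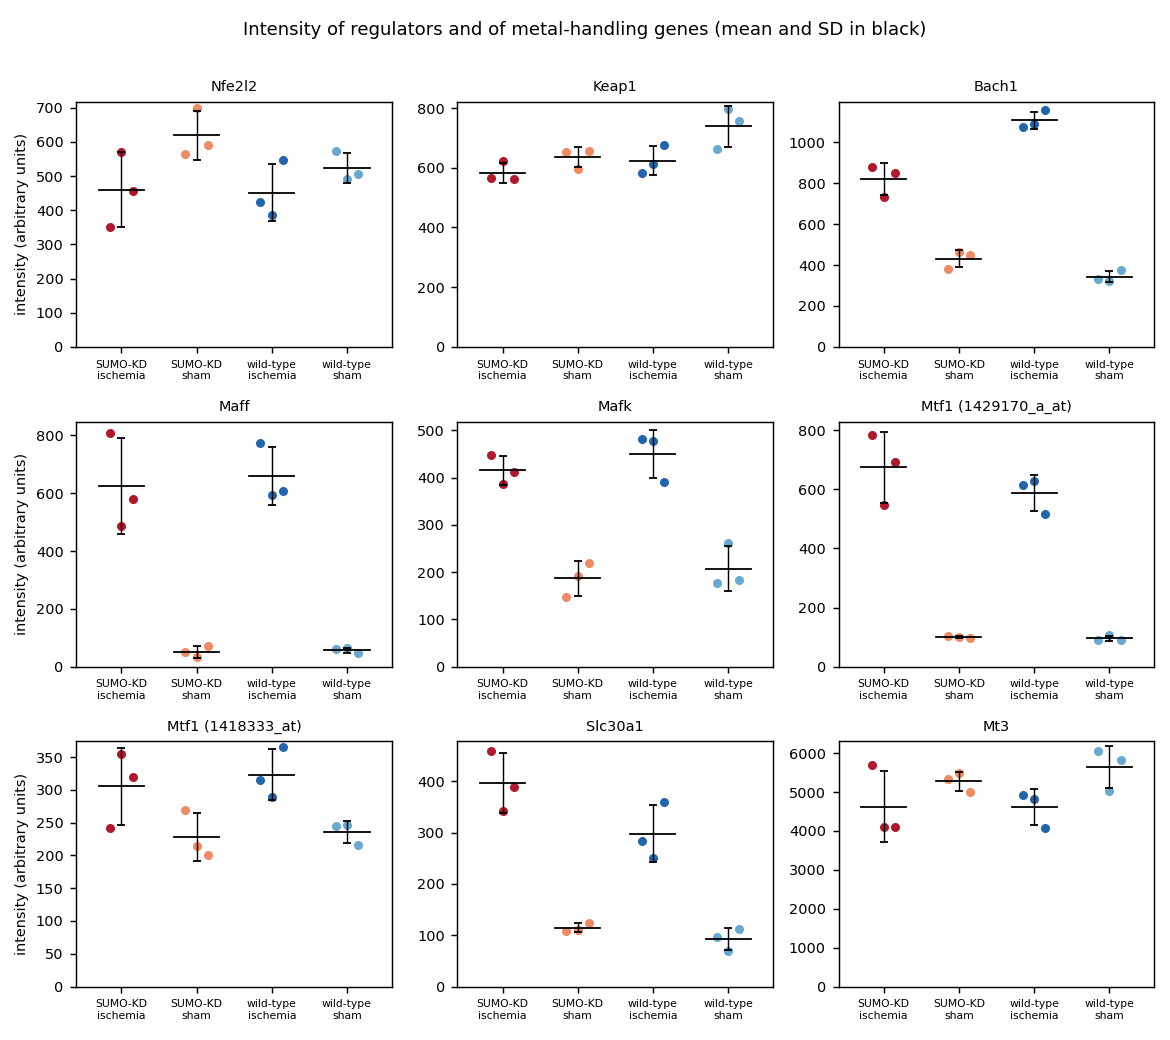
Intensity in arbitrary units (linear axis from 0) of regulators and metal-handling genes, 1 point per array, by group, with the mean as a black line and the SD of 3 arrays as a black bar. Bach1, Maff, Mafk, Slc30a1 and Mtf1 probe set 1429170_a_at are higher after ischemia in both genotypes without overlap, while Nfe2l2 and Keap1 were not called.

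Among 15 further genes of glutathione synthesis and use, 2 rose and 3 fell in each genotype, with median log2 changes of -0.04 in SUMO-KD and 0.02 in wild-type mice, against 6.09% and 9.6% of all genes called higher and 4.62% and 8.88% called lower. With an array left out, 0 to 3 fell in SUMO-KD and 1 to 3 in wild-type mice. Chac1, which encodes an enzyme that degrades glutathione, changed by 2.65 in SUMO-KD (limma adjusted p = 5.61e-05) and 2.93 in wild-type mice (limma adjusted p = 1.79e-05). Slc3a2, the heavy chain that pairs with the Slc7a11 product, changed by 0.58 in SUMO-KD (limma adjusted p = 0.00904) and 0.89 in wild-type mice (limma adjusted p = 0.000481), while Slc7a11 itself changed by -0.03 and 0.67. The 3 genes that fell encode glutathione transferases, while other transferase genes of the list were not called. Gstp1 changed by -0.40 in SUMO-KD (limma adjusted p = 0.0127) and -0.46 in wild-type mice (limma adjusted p = 0.00393), and its SUMO-KD call was lost without SUMO-KD ischemia replicate 2 (adjusted p = 0.0515) and with the compared groups only (adjusted p = 0.0539). Gstm1 changed by -0.40 in SUMO-KD (limma adjusted p = 0.0403) and -0.39 in wild-type mice (limma adjusted p = 0.0304). Its SUMO-KD call was kept in 9 of 24 alternative settings and its wild-type call in 19 of 24, the 5 losses coming without wild-type ischemia replicate 1 or 2 or any wild-type sham replicate (adjusted p 0.0578 to 0.0935).

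Of 7 measured genes of the thioredoxin and peroxiredoxin group, 2 rose and 1 fell in each genotype, with a median log2 change of -0.175 in SUMO-KD and -0.165 in wild-type mice, beside the same shares of all genes. Sesn2, a stress-induced sestrin, changed by 1.44 in SUMO-KD (limma adjusted p = 0.00401) and 1.56 in wild-type mice (limma adjusted p = 0.00152). Txnip, which encodes an inhibitor of thioredoxin, changed by 1.18 in SUMO-KD (limma adjusted p = 0.0266) and 1.32 in wild-type mice (limma adjusted p = 0.0103), and its SUMO-KD call was lost without SUMO-KD ischemia replicate 1 or 3 or sham replicate 1 or 2 (adjusted p 0.0726 to 0.0958), with no offset (adjusted p = 0.0548) and with the compared groups only (adjusted p = 0.0989). Prdx3, a mitochondrial peroxiredoxin, changed by -0.32 in SUMO-KD (limma adjusted p = 0.0273) and -0.32 in wild-type mice (limma adjusted p = 0.0195). Its SUMO-KD call was lost without SUMO-KD ischemia replicate 2 or 3 or sham replicate 1 or 3 (adjusted p 0.0700 to 0.101), and its wild-type call without wild-type ischemia replicate 1 or 2 or sham replicate 1 or 3 (adjusted p 0.0518 to 0.0667). Both were also lost with the compared groups only (adjusted p = 0.0846 in SUMO-KD and 0.0573 in wild-type mice).

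Of 12 measured genes of heme and iron handling, 0 rose and 2 fell in SUMO-KD mice, and 1 rose and 1 fell in wild-type mice, with median log2 changes of -0.16 and -0.09. With 4.62% of all genes called lower in SUMO-KD and 9.6% higher and 8.88% lower in wild-type mice, the wild-type counts of 1 of 12 lie near the background, and none of these counts is read as a result about the list. Without wild-type ischemia replicate 3, 2 rose in wild-type mice, and without wild-type sham replicate 2, 2 fell. Hebp1, which encodes a heme-binding protein, changed by -0.77 in SUMO-KD (limma adjusted p = 0.00963) and -0.65 in wild-type mice (limma adjusted p = 0.0146), and its SUMO-KD call was lost with the compared groups only (adjusted p = 0.0568). Tfrc, the transferrin receptor, changed by 0.36 in SUMO-KD (limma adjusted p = 0.126) and 0.77 in wild-type mice (limma adjusted p = 0.00256), with a difference of the responses of -0.41 (95% confidence interval -0.84 to 0.01). Aco1, whose product is also iron regulatory protein 1, changed by -0.38 in SUMO-KD (limma adjusted p = 0.0179) and -0.03 in wild-type mice (limma adjusted p = 0.856), and its call was kept in 19 of 24 alternative settings. It was lost without probe sets whose names mark them as shared (adjusted p = 0.368), with the mean of its probe sets (adjusted p = 0.0761), with the compared groups only (adjusted p = 0.0610), and without SUMO-KD ischemia replicate 3 (adjusted p = 0.0611) or sham replicate 2 (adjusted p = 0.0715).

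Of 13 measured other antioxidant and detoxification genes, 0 rose and 2 fell in each genotype, with median log2 changes of -0.002 in SUMO-KD and -0.03 in wild-type mice, against 4.62% and 8.88% of all genes called lower. Of 5 genes of NADPH supply limma called 0 in each genotype (0 at an unadjusted p under 0.05 in SUMO-KD and 1 in wild-type mice), and 2 fell in wild-type mice without wild-type ischemia replicate 2. Cbr1, a carbonyl reductase, changed by -0.43 in SUMO-KD (limma adjusted p = 0.0278) and -0.46 in wild-type mice (limma adjusted p = 0.0141). Its SUMO-KD call was lost without ischemia replicate 2 or 3 or sham replicate 2 or 3 of that genotype (adjusted p 0.0772 to 0.104), and its wild-type call without wild-type ischemia replicate 1 (adjusted p = 0.0537). Cbr3 changed by -0.41 in SUMO-KD (limma adjusted p = 0.125, called at 0.0469 without SUMO-KD sham replicate 3) and by -0.59 in wild-type mice (limma adjusted p = 0.0231, lost without wild-type ischemia replicate 1 or 2 or sham replicate 1 or 2, 0.0519 to 0.0812). Cat, the gene of catalase, changed by -0.36 in SUMO-KD (limma adjusted p = 0.0490, kept in 8 of 24 alternative settings) and -0.23 in wild-type mice (limma adjusted p = 0.160).

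The 7 pathway lists held 80 genes, not all of them measured. Between the genotypes 1 of these genes was called in sham, against 2.1% of all genes. It was Slc39a6, a zinc importer, higher in SUMO-KD mice by 0.70 (limma adjusted p = 0.0250). After ischemia 1 was called, against 1.56% of all genes. It was the aldehyde dehydrogenase gene Aldh1a1, lower in SUMO-KD mice by a log2 difference of -0.58 (limma adjusted p = 0.0264). These counts lie near the shares of all genes, and neither is read as a result about the lists. Slc39a6 and Aldh1a1 were both named after their values were seen. Slc39a6 lost its call without SUMO-KD sham replicate 1 or 3 or wild-type sham replicate 1 or 2 (adjusted p 0.0928 to 0.121), with no offset (adjusted p = 0.0589) and with the compared groups only (adjusted p = 0.0911). Aldh1a1 lost its call without SUMO-KD ischemia replicate 2 or 3 or any wild-type ischemia replicate (adjusted p 0.0541 to 0.1), with no offset (adjusted p = 0.0609), with arrays centred on their median (adjusted p = 0.0546) and with the compared groups only (adjusted p = 0.128).

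Median intensity was 141 to 162 per array, and 22.4% to 28.6% of probe sets read under 32. Sumo3 read 1879 to 1936 in SUMO-KD ischemia and 1337 to 1689 in SUMO-KD sham arrays, and 3245 to 3518 in wild-type ischemia and 2247 to 2467 in wild-type sham arrays, lower in SUMO-KD mice after both surgeries (limma adjusted p = 0.00152 after ischemia and 0.00963 in sham), and Sumo2 was not analysed here. Of 8 markers of CA1 pyramidal neurons 4 were measured, and their summed intensity was 3711 to 4430 in SUMO-KD ischemia and 3689 to 4874 in SUMO-KD sham arrays, and 3457 to 4461 in wild-type ischemia and 5665 to 7975 in wild-type sham arrays. The 4 did not move together. In sham Wfs1, Pou3f1 and Man1a averaged 1209, 1092 and 882 in SUMO-KD and 2252, 1992 and 1602 in wild-type arrays. Ccn3 averaged 972 in SUMO-KD and 671 in wild-type sham arrays. After ischemia 0 of the 4 were called against sham in SUMO-KD mice, and 3 were called lower in wild-type mice. Of all genes 4.62% were called lower in SUMO-KD and 8.88% in wild-type mice. Between the genotypes 2 of the 4 were called lower in SUMO-KD sham arrays, and 1 higher in SUMO-KD ischemia arrays. In either direction 2.1% of all genes were called in sham and 1.56% after ischemia. The 11 astrocyte markers summed to 26000 to 28150 in SUMO-KD ischemia and 28020 to 30400 in SUMO-KD sham arrays, and 23290 to 27150 in wild-type ischemia and 23590 to 27260 in wild-type sham arrays. Single astrocyte markers moved differently from this sum, which the brightest of them dominate. After ischemia 1 of 11 was called higher and 1 lower in SUMO-KD mice, and 2 higher and 0 lower in wild-type mice. Of all genes 6.09% were called higher and 4.62% lower in SUMO-KD mice, and 9.6% and 8.88% in wild-type mice. Between the genotypes 2 of the 11 were called in sham, both higher in SUMO-KD mice, and 0 after ischemia, against 2.1% and 1.56% of all genes. Gfap, the astrocyte intermediate filament gene, averaged 2110 ± 171 in SUMO-KD ischemia and 1609 ± 78.7 in SUMO-KD sham arrays (limma adjusted p = 0.0935), and 1842 ± 337 in wild-type ischemia and 1062 ± 132 in wild-type sham arrays (limma adjusted p = 0.00216). Sox9, an astrocyte transcription factor gene, averaged 389 ± 34.4 in SUMO-KD ischemia and 244 ± 40.5 in SUMO-KD sham arrays (limma adjusted p = 0.00533), and 531 ± 35.5 in wild-type ischemia and 240.2 ± 11.2 in wild-type sham arrays (limma adjusted p = 0.000118; SD, n = 3 each). Fgfr3 was called lower in SUMO-KD mice (log2 change -0.47, limma adjusted p = 0.0341). The 10 measured microglia markers summed to 5336 to 5915 in SUMO-KD ischemia and 6826 to 7072 in SUMO-KD sham arrays. In wild-type mice they summed to 5495 to 6068 in ischemia and 6496 to 7233 in sham arrays. Of the 10, 4 fell in SUMO-KD (4.62% of all genes) and 5 in wild-type mice (8.88% of all genes), with 0 higher. The 8 measured neutrophil and monocyte markers summed to 548 to 1849 in SUMO-KD ischemia and 192 to 402 in SUMO-KD sham arrays. In wild-type mice they summed to 736 to 982 in ischemia and 334 to 877 in sham arrays. Of the 8, 5 averaged under 32 in SUMO-KD sham, 2 in SUMO-KD ischemia and 3 in each wild-type group. The highest sum was that of SUMO-KD ischemia replicate 2, where S100a8 read 705, S100a9 398 and Ngp 242. In replicates 1 and 3 S100a9 read 81.9 and 71.8, and Ngp 37.3 and 44.9. The part of these cells and of the 18S values in the changes of the 9 genes was not tested.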

How the data were processed

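RNA of CA1 tissue from 12 pools of 2 mouse brains each was hybridised to Affymetrix arrays. Per the submitters' processing notes Partek 6.6 and RMA were used, but the values deposited by the authors are linear intensity values with a trimmed mean of 500.2 on every array (2% trimmed at each end), and how they were made is not given in the sources used for this work. The number of arrays limits the precision. The members and gene lists were chosen with earlier results of these data known.

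Of 22690 probe sets, 20393 had 1 gene symbol in the platform annotation. The probe set with the highest mean was kept for each of 12394 genes, log2(intensity + 32) was fitted with limma 3.58.1 (R 4.3.3; 4 group means, all 12 arrays), and p-values were two-sided with Benjamini-Hochberg adjustment. All 20393 probe sets were also fitted by themselves. The fit was tested on simulated data, with settings and outcome not given here. With 3 arrays per group, each p-value sets a difference of group means against the spread between pools within groups, estimated over all 4 groups. For each gene limma draws this estimate toward a value shared by all genes.

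Named were the 9 genes, up to 4 called genes of each of 7 pathway lists with the smallest p for the averaged response, fixed regulators (Nfe2l2, Keap1, Bach1, Mtf1, Mt3), and the 3 nearest patterns of any member with an averaged log2 change of at least 1 in size. Of the members only Hmox1 met that size. Alternatives were the offset, the choice of probe set, a filter on dim genes, quantile normalization, centring, a replicate block, the compared groups only, limma's trend and robust options, and leaving out each array. Matches of motifs and promoters used the RefSeq table of GRCm38.p6.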

Additional observations from a re-analysis of the deposited data

How the results depend on the processing

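The number of the 9 genes called stayed between 2 and 4 in SUMO-KD mice, 5 and 7 in wild-type mice and 5 and 6 for the averaged response in every alternative, and limma called 0 for the 3 comparisons between genotypes in all of them. The calls of Hmox1 and Mt1 in both genotypes and of Srxn1, Txnrd1 and Mt2 in wild-type mice were kept in every alternative run, and no called change turned its sign, whereas uncalled changes near 0 did (6 of 215 values in wild-type and 8 of 215 in SUMO-KD mice). Of 24 alternatives, 5 kept the wild-type call of Gclm, 12 that of Slc7a11 and 21 the SUMO-KD call of Mt2, which was also lost with the compared groups only (adjusted p = 0.0664). Srxn1 probe set 1425351_at was called lower in SUMO-KD than in wild-type mice after ischemia. That call was lost with an offset of 16 (limma adjusted p = 0.0768) and when any 1 of the 12 arrays was left out. It was kept with an offset of 64 (limma adjusted p = 0.0331) and with the replicate block (limma adjusted p = 0.0214). These settings were chosen after seeing the data. Centring arrays on their median shifted the median wild-type change over all genes to -0.10 and the calls to 988 higher and 1426 lower, against 1190 and 1101. The labels do not say that replicate numbers pair the arrays, so they were not taken to do so. Of 18 pairs of arrays with the same replicate number, 5 had deviations that correlated over 0.1 (range -0.17 to 0.28). This cannot show whether the numbers pair the arrays, because arrays with different numbers were not compared in this way. With the replicate block 3 of the 9 genes were called in SUMO-KD and 5 in wild-type mice. Dim probe sets such as that of Slc7a11, near the offset of 32, limit what can be detected.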
